A study of Mus musculus with 108 samples.

Results

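The genes of the interleukin 12 family encode 5 subunits from which the cytokines of the family are built: Il12a, Il12b, Il23a, Il27 and Ebi3. They were taken by symbol from a table of 49585 genes, and each symbol had 1 row, so that all 5 of 5 were found. Counts came from all libraries of the series, myeloid cells purified by flow cytometry from brains with lung-to-brain metastases, from tumour-free brains or from blood. All animals were Balb/C athymic nude mice (CAnN.Cg-Foxn1nu/Crl), whose Foxn1 mutation leaves them without a thymus and so with few T cells, the usual responders to these cytokines, while B cells, NK cells and myeloid cells remain.

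The libraries formed 28 groups. Tumour-bearing brains without radiotherapy gave microglia and bone marrow-derived macrophages (BMDM), each with 5 libraries from a stage labelled small and 5 from one labelled large. They also gave inflammatory monocytes and granulocytes, each with 4 small-stage and 5 large-stage libraries. Each population was also collected from irradiated tumour-bearing mice, which were not divided by stage. Their whole brain had received either 5 doses of 2 Gy, with 4 libraries for day 3, 4 for day 5 and 3 for day 10, or a single dose of 10 Gy, with 3 libraries for day 3. The controls were microglia (4 libraries) and blood monocytes (4) of tumour-free mice, and 2 further groups of tumour-free microglia (3 libraries each) whose titles carry 5x2 and day 3 or day 5 although their radiotherapy field says none. The event from which days are counted is not stated, nor is it stated that each library is a different mouse, so a p-value here speaks only of the spread among libraries, which may be technical. In sorted bulk samples, fewer cells that carry a transcript and less transcript per cell cannot be told apart.

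Cytokines of this family are secreted as pairs of an alpha subunit and a beta subunit. Il12b encodes the beta subunit that interleukin 12 shares with interleukin 23. It joins the product of Il12a in the former, which drives interferon gamma production by T and NK cells, and that of Il23a in the latter, which maintains T cells producing interleukin 17. Ebi3 encodes the other beta subunit, which pairs with the product of Il27 in interleukin 27 and has been described with that of Il12a in interleukin 35. Dendritic cells, macrophages and activated microglia are the known sources of these subunits, which are induced through NF-kB, IRF and AP-1 factors and restrained by interleukin 10.

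Of the promoters in the RefSeq table (GRCm38.p6), 3 of the 5 genes had an entry. The 250 bases before the annotated start are shown for both beta subunits, which carry most of the differences below. They are also shown for the alpha subunit Il12a, whose distribution differs from that of Il12b. Capitals mark matches, on either strand, to the NF-kB consensus, a pair of IRF sites (GAAA, any 2 bases, GAAA), AP-1 (TGANTCA), the ETS core bound by PU.1 (GAGGAA) or a TATA box (TATAAA), which were searched in 300 bases, including 50 after the start. Only exact matches are marked, so that a site that departs from these patterns stays in small letters, and a missing mark does not show that a site is absent.
Il12b, chr11:44399813-44400062, plus strand: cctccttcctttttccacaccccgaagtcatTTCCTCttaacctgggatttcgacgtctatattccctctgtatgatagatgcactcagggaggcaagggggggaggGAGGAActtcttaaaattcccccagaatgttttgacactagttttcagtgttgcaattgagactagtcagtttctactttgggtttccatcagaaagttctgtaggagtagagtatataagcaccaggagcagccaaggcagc
Ebi3, chr17:55952373-55952622, plus strand: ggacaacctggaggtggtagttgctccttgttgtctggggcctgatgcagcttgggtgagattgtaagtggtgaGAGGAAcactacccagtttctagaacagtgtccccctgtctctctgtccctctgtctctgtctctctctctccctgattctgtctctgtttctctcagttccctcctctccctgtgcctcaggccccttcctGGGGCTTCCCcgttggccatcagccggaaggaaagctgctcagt
Il12a, chr3:68690394-68690643, plus strand: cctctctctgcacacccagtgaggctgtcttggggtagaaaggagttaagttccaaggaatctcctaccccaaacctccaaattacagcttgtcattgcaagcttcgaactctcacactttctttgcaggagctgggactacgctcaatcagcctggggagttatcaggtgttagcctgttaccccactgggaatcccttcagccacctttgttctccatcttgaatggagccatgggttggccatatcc

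The Il12b window held the ETS core at 2 places, beginning 219 bases before the start on the minus strand and 143 bases before it on the plus strand. In the Ebi3 window, 1 stretch 44 bases before the start (GGGGCTTCCC) matched the NF-kB consensus on both strands, with a second site among the 50 bases after the start, and the ETS core lay 176 bases before it. Neither of the 2 annotated Il12a start sites had any of these motifs in its window. Over 32851 windows of all genes, 8.46% held the NF-kB consensus, 28.3% the ETS core, 13.6% the TATA box, 7.81% AP-1 and 3.44% the IRF pair, so that such matches are common and are given as a description only.

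Library totals ran from 985423 to 18642747 counts with a median of 11362593.5. Microglia and granulocytes carried their markers: the summed level of 6 microglia markers was 2919 CPM or more in microglia of small and large tumours and 141 CPM or less in blood monocytes, and that of 7 granulocyte markers was 15496 CPM or more in granulocytes of those stages and 1156 CPM or less in the other unirradiated groups except microglia of small tumours, which reached 1333 CPM. The 6 monocyte markers separated the labels less well. They summed to 656 to 5295 CPM in blood monocytes, 3946 to 6324 CPM in small-stage monocytes and 1457 to 3256 CPM in small-stage granulocytes. CPM are counts scaled to a common library total, adjusted by TMM factors over all libraries together. In all, 11 libraries had fewer than 3000000 counts or more than 30000 genes detected and are called doubtful here. They included 2 of 4 tumour-free microglia, 3 of 4 blood monocyte, 2 of 5 small-stage microglia and 1 of 5 large-stage BMDM libraries. Small-stage granulocyte library 1 had the fewest genes detected of all libraries (7531, from 3805740 counts) but is not among the doubtful ones, since the rule sets no lower limit on genes.

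All 5 subunits had counts, at very different levels. Ebi3 (ENSMUSG00000003206, GRCm38 chromosome 17, 55952640 to 55957022) had 33289 counts and was detected in every library. Il12b (ENSMUSG00000004296, chromosome 11, 44400063 to 44414033) had 15983 counts in 84 libraries, and Il23a (ENSMUSG00000025383, chromosome 10, 128296139 to 128298752) 8520 counts in 85. Il27 (ENSMUSG00000044701, chromosome 7, 126589010 to 126594941) had 4443 counts in 104 libraries, and Il12a (ENSMUSG00000027776, chromosome 3, 68690644 to 68698547) 2173 counts in 70. Because the strand of counting is not given in the sources used here, reads of Gm16712, which overlaps Ebi3 on the opposite strand, cannot be told apart from those of Ebi3, and the same holds for a short overlap of Il27 with Apobr.

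**Figure D1:**
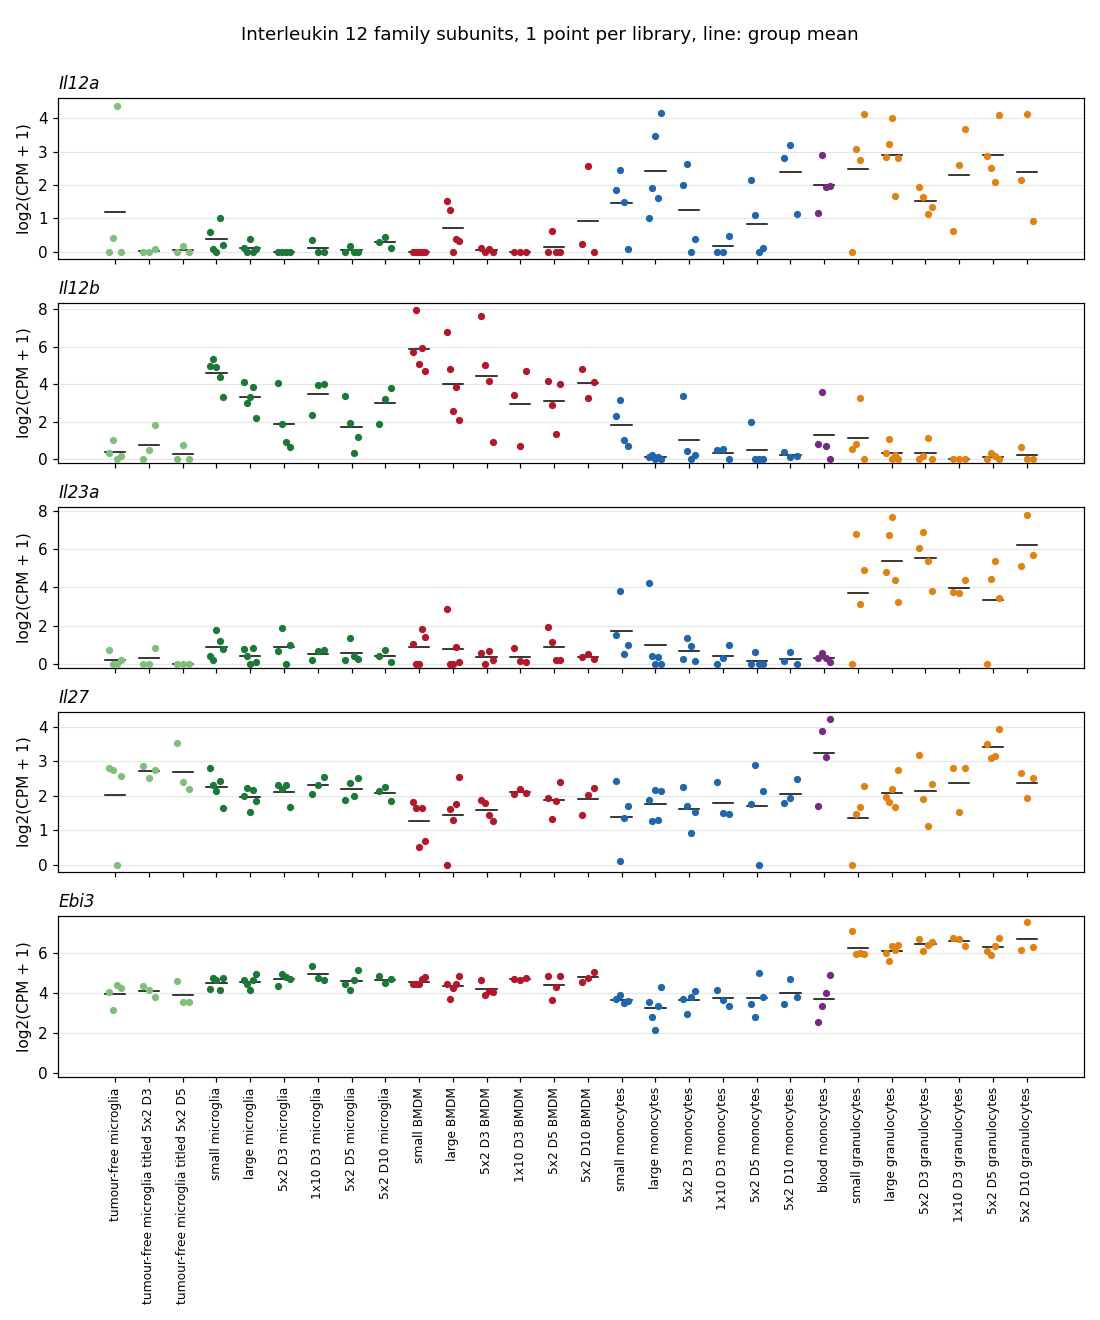
Level of each subunit in every library, as log2(CPM + 1), with 1 point per library and a line at the group mean of the points; colours mark the cell populations. Il12b points stand high in microglia and BMDM of tumour-bearing brains, Il23a and Ebi3 points in granulocytes, and Il12a points in granulocytes and monocytes.

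Without radiotherapy, Il12b was highest in another population than the alpha subunits that pair with it. Ebi3 and Il12a, also described as a pair, were both highest in granulocytes. Per kilobase of exons, which allows levels of different genes to be compared, Il12b in unirradiated BMDM averaged 29.3 ± 37.5 CPM per kb (SD, n = 10), Il12a 0.227 ± 0.403 and Il23a 0.552 ± 0.876. In unirradiated granulocytes (n = 9) the order was Ebi3 (64.0 ± 22.7 CPM per kb), Il23a (25.2 ± 30.5), Il12a (4.41 ± 3.15), Il27 (2.69 ± 1.54) and Il12b (0.641 ± 1.40). In microglia of unirradiated tumours (n = 10) Ebi3 (19.4 ± 3.82 CPM per kb) was followed by Il12b (9.08 ± 6.07), Il27 (3.38 ± 1.14), Il23a (0.295 ± 0.314) and Il12a (0.130 ± 0.193). Il12b thus had its highest mean in BMDM, whereas Il12a and Il23a, the alpha subunits that pair with it, had theirs in granulocytes. Over the 28 group means of log2(CPM + 1), Il12a and Il12b had a Pearson r of -0.60 and a Spearman rho of -0.63. For Il23a and Ebi3 r was 0.84, but rho was lower, at 0.525. These values are a description over groups that share populations and libraries scaled together.

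**Figure D2:**
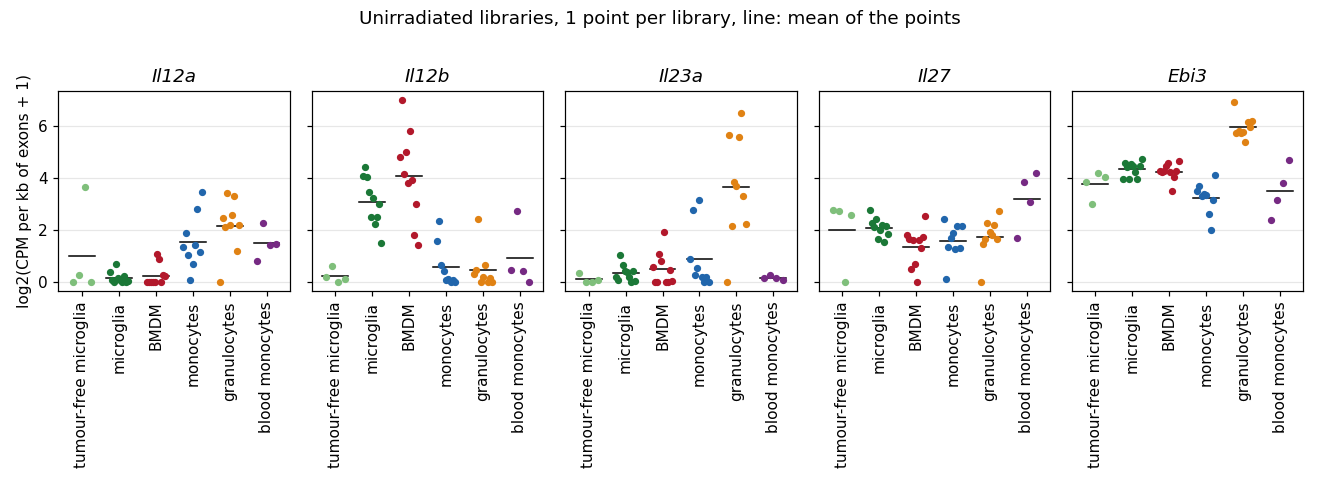
Level per kilobase of exons, as log2(CPM per kb + 1), in libraries without radiotherapy, by population, with 1 point per library and a line at the mean of the points. Within BMDM the Il12b points lie above nearly all Il12a and Il23a points, and in granulocytes most Il23a and all Ebi3 points lie above those of Il12b.

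Il12b was compared first between microglia of tumour-bearing brains and tumour-free microglia. In tumour-free microglia it was at 0.247, 1.03, 0 and 0.130 CPM in libraries 1 to 4, which together is 14 counts. In small-stage microglia it was at 30.8, 39.6, 29.9, 19.6 and 9.14 CPM, and in large-stage microglia at 16.3, 7.11, 9.08, 13.5 and 3.53 CPM. Every library of both tumour groups lay above every tumour-free library. The log2 fold change was 5.99 ± 1.28 (SE) at the small stage (25.8 ± 11.7 against 0.352 ± 0.465 CPM, edgeR quasi-likelihood adjusted p = 0.00184) and 4.58 ± 1.23 at the large stage (9.91 ± 5.08 CPM, adjusted p = 0.00692). Both comparisons use the same 4 tumour-free libraries.

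Il12b was the 1 member called among the 4 tested in each comparison, where 15.4% of 19754 genes were called at the small stage and 31.9% at the large stage. Il23a (2.17 ± 1.39), Il27 (-0.13 ± 0.47) and Ebi3 (0.55 ± 0.28) were not called at the small stage, and the median of the 4 log2 fold changes was 1.36 against -0.03 for all genes. At the large stage it was 0.68 against -0.26. Il12a did not pass the filter on low counts: of 32 counts in tumour-free microglia, 29 came from library 3, which had 19.9 CPM and the lowest total of all libraries. Il12b stayed called without the doubtful libraries and without any 1 library in either comparison. Without tumour-free library 2 the log2 fold changes were 7.30 and 5.88, and without tumour-free library 4 they were 5.48 and 4.05. Astrocyte markers (8 genes) summed to 961 to 1367 CPM in tumour-free microglia and to 127 to 324 CPM in the 2 tumour groups, and conventional dendritic cell markers (8 genes) to 58.2 to 102 and 82.4 to 160 CPM. Plasmacytoid dendritic cell markers (5 genes) summed to 1.37 to 12.3 CPM in tumour-free microglia, 25.1 to 53.5 CPM at the small stage and 14.3 to 52.0 CPM at the large stage, without overlap, and 1 of 4 tested was called higher at each stage. A list of 6 genes named for monocyte-derived macrophages was itself highest in granulocytes, above monocytes and BMDM. It summed to 96.9 to 433 CPM in tumour-free microglia, 248 to 474 CPM at the small stage and 476 to 757 CPM at the large stage. The part of the cells that these lists are named for in the Il12b difference was not tested.

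The other tumour-free microglia, titled 5x2, were close to the first controls in Il12b, with 0, 0.412 and 2.50 CPM (day 3) and 0, 0.704 and 0 CPM (day 5). None of the 4 members tested was called in either group against tumour-free microglia, where 1.91% and 1.35% of genes were called. The log2 fold changes of Il12b were 1.19 ± 1.30 and -0.72 ± 1.47. At an unadjusted p under 0.05 there was Il23a in the day 5 group, with 0 counts in its 3 libraries and 8 counts in the 4 controls, so that no fold is given.

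The genes around the cytokines were counted from lists of inducers, inhibitors, receptors, signal transducers and response genes. Of 9 inducers of subunit transcription, 4 were higher at the small stage and 6 at the large stage, none lower. Of all genes tested, 15.4% and 31.9% were called in these comparisons. Irf1, an interferon regulatory factor that acts on several promoters of the family, was at 253 ± 104 and 240 ± 70.8 against 101 ± 59.9 CPM (log2 fold changes 1.32 ± 0.33 and 1.22 ± 0.33). Runx1 was higher by 0.85 ± 0.22 and 0.71 ± 0.22. Rela, an NF-kB subunit, was higher at both stages (0.73 ± 0.25 and 0.86 ± 0.25), and Rel, the subunit best known for Il12b, at the small stage (1.14 ± 0.32, from 116 ± 70.9 to 255 ± 45.6 CPM).

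Of 6 inhibitors, 5 were higher at both stages, beside the same 15.4% and 31.9% of all genes called. Nfil3, a repressor of Il12b transcription, went from 8.54 ± 1.23 to 77.2 ± 58.5 CPM at the small stage and 121 ± 39.4 CPM at the large stage (3.22 ± 0.50 and 3.80 ± 0.51), and Socs3, which blocks cytokine receptor signalling, from 238 ± 81.8 to 904 ± 342 and 883 ± 253 CPM (1.93 ± 0.33 and 1.86 ± 0.33). Il10 had no count in the 4 tumour-free libraries and 1.76 ± 1.36 and 1.15 ± 0.627 CPM in the tumour groups, at least 18.1-fold and 11.8-fold higher when 3 counts over the control group are taken as its floor. Of 6 signal transducers, 4 were higher at both stages, among them Stat3 (135 ± 26.7 to 451 ± 75.6 CPM at the small stage, 1.76 ± 0.21), Jak2 and Jak1.

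Of 4 receptors tested, none was called at the small stage and 1 at the large stage, beside the 15.4% and 31.9% of all genes given above. At the large stage Il27ra, the specific chain of the interleukin 27 receptor, was lower (2.74 ± 2.16 against 13.2 ± 24.6 CPM, -2.22 ± 0.85, adjusted p = 0.0444). An SD so far above the mean of 4 libraries shows that the tumour-free mean rests on 1 high library. Whether the call holds without that library was not tested. Il6st, the chain that interleukin 27 shares with interleukin 6, was at 163 ± 60.8 and 161 ± 45.6 against 224 ± 171 CPM and was not called. Over all genes tested the median log2 fold change was -0.03 at the small and -0.26 at the large stage, and scaling by RLE factors moved it to -0.21 and -0.51. It then called 1199 genes higher and 2333 lower at the small stage, instead of 1491 and 1544, and 1598 and 5217 at the large stage, instead of 2315 and 3994.

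BMDM held more Il12b than microglia, with a wide spread. The small-stage BMDM libraries had 52.3, 247, 32.5, 61.4 and 25.4 CPM, and the large-stage libraries 108.1, 27.7, 4.91, 13.6 and 3.29 CPM. Small-stage library 2 and large-stage library 1 stood far above the others of their groups, and BMDM and microglia overlapped. The mean was 57.7 ± 73.7 CPM in BMDM and 17.9 ± 11.9 CPM in microglia (n = 10 each, log2 fold change 1.68 ± 0.55, adjusted p = 0.0260), in a comparison where 29.9% of 15103 genes were called. The call was lost without large-stage BMDM library 1 (1.01, adjusted p = 0.117), without small-stage BMDM library 2 (1.182, adjusted p = 0.0837) and without the doubtful libraries (1.70, adjusted p = 0.0757). Il23a (1.00 ± 0.99), Il27 (-0.92 ± 0.51) and Ebi3 (-0.10 ± 0.14, 95% interval -0.36 to 0.17) were not called.

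Against monocytes the separation of Il12b was larger. Small-stage monocytes had 3.88, 8.04, 1.07 and 0.648 CPM, and the 5 large-stage libraries 0.0928, 0.168, 0, 0.0929 and 0 CPM. The lowest BMDM libraries, both of the large stage, overlapped with the highest monocyte libraries, both of the small stage. In the fit, which averages small and large stages on the log scale and can therefore exceed the ratio of the means, Il12b was higher in BMDM by 6.64 ± 0.87 (57.7 ± 73.7 against 1.56 ± 2.73 CPM, adjusted p = 5.8e-05). Ebi3 was higher in BMDM by 1.01 ± 0.24 (21.2 ± 4.54 against 10.5 ± 4.37 CPM, adjusted p = 0.00818).

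Il12a went the other way. It had 0 counts in all 5 small-stage BMDM libraries and 1.89, 1.41, 0, 0.311 and 0.258 CPM in the large-stage ones, against 2.65, 4.47, 1.81 and 0.0720 CPM in small-stage and 1.02, 2.78, 10.1, 2.04 and 16.9 CPM in large-stage monocytes. The gene was called lower in BMDM (0.387 ± 0.685 against 4.66 ± 5.45 CPM, adjusted p = 0.00228). Because a whole group is at 0, its fitted fold change depends on the prior count. At the small stage the level in monocytes was at least 42.6-fold that in BMDM, with 3 counts over the BMDM group as the floor (0.0528 CPM). So 3 of the 5 members differed between BMDM and monocytes, where 13.8% of 14939 genes did, and the median of the 5 was -0.32 against 0.04 for all genes.

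**Figure D3:**
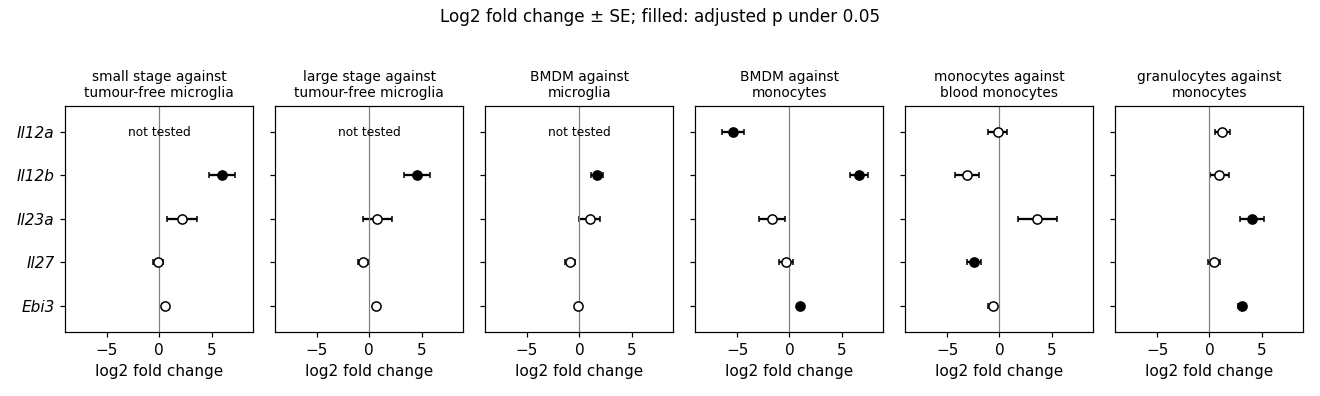
Log2 fold changes of the 5 subunits in 6 comparisons of libraries without radiotherapy, each with its SE from the quasi-likelihood fit; filled points have an adjusted p under 0.05. Il12b is filled in the first 4 panels, the Il12a and Il12b points lie on opposite sides of 0 for BMDM against monocytes, and Il23a and Ebi3 are filled for granulocytes; a fitted value of Il12a there rests on a group with 0 counts.

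Markers of other cell types moved with Il12b in BMDM, in comparisons that called 29.9% of all genes against microglia and 13.8% against monocytes. All 8 conventional dendritic cell markers tested were higher in BMDM than in microglia and than in monocytes, and their sum was 1123 to 2745 CPM in small-stage BMDM, 462 to 1391 CPM in large-stage BMDM, 82.4 to 160 CPM in microglia and 70.1 to 422 CPM in monocytes. Of 9 markers of mature migratory dendritic cells, 7 were tested, with 6 higher than in microglia and 7 than in monocytes. They summed to 1387 to 2577 CPM in small-stage BMDM, 200 to 1942 CPM in large-stage BMDM and 89.6 to 326 CPM in microglia. No conventional dendritic cell marker was at 0 throughout a BMDM group. Sums of the 6 microglia markers were 512 to 1633 and 368 to 2330 CPM in small-stage and large-stage BMDM.

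Across all 24 BMDM libraries, irradiated ones included, log2(CPM + 1) of Il12b followed the summed conventional dendritic cell markers with a Pearson r of 0.83 (permutation p = 1e-05, the smallest that 100000 permutations give, adjusted over 37 relations 0.00037) and a Spearman rho of 0.82 (permutation p = 2e-05). Without the 2 libraries farthest from the median of the markers r was 0.76, and for deviations from the mean of each condition it was 0.80. For the mature dendritic cell markers r was 0.72 (permutation p = 7e-05, adjusted 0.0013), rho was 0.77 (permutation p = 2e-05), r without the 2 farthest libraries was 0.71 and r within conditions was 0.68. T and NK cell markers gave r = 0.59 (permutation p = 0.00227, adjusted 0.0120) and rho = 0.63 (permutation p = 0.00127), and r fell to 0.38 without the 2 farthest libraries. In the 24 microglia libraries of tumour-bearing brains, Il12b gave r = -0.11 with the conventional (permutation p = 0.614, rho = 0.0078, permutation p = 0.972) and r = 0.12 with the mature dendritic cell markers (permutation p = 0.571, rho = 0.13, permutation p = 0.551). These relations were chosen after the values were seen, and the part of dendritic cells in the Il12b level of BMDM was not tested.

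**Figure D4:**
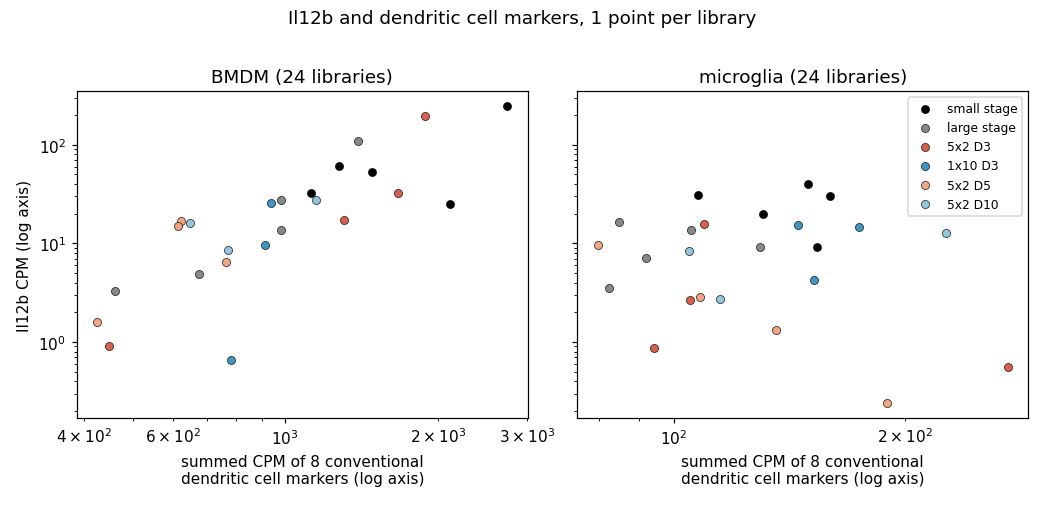
Il12b CPM against the summed CPM of 8 conventional dendritic cell markers in the 24 BMDM (left) and 24 microglia libraries (right) of tumour-bearing brains, on log axes, with 1 point per library coloured by condition. BMDM points climb together over both axes (r = 0.83), while microglia points show no such trend (r = -0.11).

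In the same microglia libraries Il12b was lower where the list named for monocyte-derived macrophages was higher (r = -0.59, permutation p = 0.00247, adjusted 0.0120, rho = -0.61, permutation p = 0.00181), with r = -0.57 without the 2 farthest libraries and -0.41 within conditions. At the small stage this list summed to 5623 to 7688 CPM in granulocytes, 2422 to 3049 CPM in monocytes and 1507 to 1994 CPM in BMDM. It therefore does not single out macrophages here.

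The pathway lists were counted for BMDM in the same way, beside 29.9% of all genes called against microglia and 13.8% against monocytes. Of 9 inducers, Rel was higher in BMDM than in microglia (403 ± 156 against 228 ± 63.4 CPM, 0.82 ± 0.24) and Runx1 lower (142 ± 30.5 against 217 ± 31.4 CPM, -0.62 ± 0.12), and against monocytes Irf5 alone was called (310 ± 65.6 against 404 ± 67.7 CPM, -0.39 ± 0.12). Of 6 inhibitors, Nfil3 (367 ± 129 against 99.1 ± 52.4 CPM, 1.92 ± 0.34) and Il10 (22.2 ± 32.4 against 1.46 ± 1.05 CPM, 3.86 ± 0.76) were higher than in microglia and Socs3 and Socs1 lower. Of 6 transducers, Stat4, which carries the interleukin 12 signal, was higher than in microglia (35.1 ± 20.6 against 0.657 ± 0.519 CPM, no overlap, 5.79 ± 0.54) and than in monocytes (4.79 ± 2.88 CPM, 2.84 ± 0.57), and Jak2 was higher than in microglia by 2.09 ± 0.26. Of 5 receptors 4 were tested: Il12rb2, the signalling chain of the interleukin 12 receptor, was higher than in microglia (5.6 ± 6.31 against 1.87 ± 1.25 CPM, 1.43 ± 0.53, adjusted p = 0.0468) and Il6st lower (99.8 ± 44.6 against 162 ± 50.7 CPM). The response genes Tbx21 and Il18r1 were higher than in both, at 1.29 ± 1.53 and 1.26 ± 0.958 CPM.

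Granulocytes held the highest Il23a and Ebi3 levels. Il23a, the alpha subunit of interleukin 23, was at 0, 110, 7.73 and 29.5 CPM in small-stage and at 26.8, 105, 203, 19.7 and 8.38 CPM in large-stage granulocytes. Monocytes had 1.85, 12.96, 0.411 and 1.01 CPM at the small and 17.7, 0.337, 0, 0.279 and 0 CPM at the large stage. The groups overlapped, since small-stage granulocyte library 1 had no count and 1 monocyte library of each stage exceeded 10 CPM. Il23a was higher in granulocytes by 4.07 ± 1.14 (56.7 ± 68.6 against 3.84 ± 6.65 CPM, n = 9 each, adjusted p = 0.00513). The value ran from 3.27 to 6.30 when 1 library was left out and the call was kept each time. The highest came without large-stage monocyte library 1 and the lowest without small-stage granulocyte library 2. Across 23 granulocyte libraries, Il23a was lower where granulocyte markers were higher (r = -0.60, permutation p = 0.00245, adjusted 0.0120). For these markers rho was -0.42 (permutation p = 0.0484, adjusted 0.138), and r was -0.59 without the 2 farthest libraries. T and NK cell markers also ran against Il23a (r = -0.60, permutation p = 0.00297, adjusted 0.0122). For them rho was -0.37 (permutation p = 0.0836, adjusted 0.183), and r was -0.43 without the 2 farthest libraries. Only 1 to 3 of these 8 markers were detected in each small-stage granulocyte library, where they summed to 27.9 to 125 CPM. Il23a rose with plasmacytoid dendritic cell markers (r = 0.69, permutation p = 0.0002, adjusted 0.0025), with r = 0.44 without the 2 farthest libraries. These markers were near the floor, with sums of 0 to 11.5 CPM in small-stage granulocytes and 0.136 to 5.04 CPM in those of day 5 after 5 fractions. In both groups library 1 had no Il23a count and few genes detected (7531 at the small stage, 10879 on day 5). The relations of Il23a were chosen after seeing the values, and no cause was tested.

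Ebi3 was at 137, 60.4, 63.5 and 60.0 CPM in small-stage and 62.3, 47.4, 80.6, 70.7 and 82.8 CPM in large-stage granulocytes, while no monocyte library exceeded 18.8 CPM. The 137 CPM came from small-stage granulocyte library 1, which had the fewest genes detected of all libraries (7531). Ebi3 was higher in granulocytes by 3.11 ± 0.39 (73.9 ± 26.1 against 10.5 ± 4.37 CPM, adjusted p = 1.19e-06). The value ran from 2.83 to 3.32 when 1 library was left out, and the call was kept each time. Gm16712, on the other strand of the same locus, was at 14.3 ± 10.7 and 24.9 ± 13.9 CPM in small- and large-stage granulocytes and 1.09 ± 0.652 and 1.34 ± 1.14 CPM in monocytes. In this comparison 49.9% of 14270 genes were called, against 2 of the 5 members, and the median of the members was 1.23 against -0.13 for all genes. Il12a (7.50 ± 5.36 against 4.66 ± 5.45 CPM, 1.23 ± 0.70), Il12b (0.96 ± 0.88) and Il27 (0.43 ± 0.61) were not called.

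Among the inducers, 4 of 9 were higher in granulocytes and 2 lower, where 49.9% of all genes were called. PU.1, encoded by Spi1, was at 1068 ± 492 against 372 ± 71.9 CPM (1.84 ± 0.25) and Irf1 at 898 ± 584 against 285 ± 43.9 CPM (1.95 ± 0.29), whereas Irf8, a factor of the monocyte and dendritic cell lineage required for interleukin 12, was at 30.5 ± 35.3 against 379 ± 103 CPM (-3.46 ± 0.58). Of 6 inhibitors 4 were higher, led by Dusp1 (1.93 ± 0.25) and Bcl6 (2.24 ± 0.30), and Il10 was lower (1.93 ± 1.89 against 42.1 ± 64.2 CPM, -4.05 ± 0.80). Of 4 receptors tested, 3 were lower: Il6st (5.76 ± 6.10 against 98.9 ± 34.9 CPM), Il27ra (0.0903 ± 0.145 against 2.35 ± 1.38 CPM) and Il12rb2. Of 6 transducers, Stat3, Jak1 and Jak2 were higher and Tyk2, a kinase of the interleukin 12 receptor, lower (36.3 ± 16.6 against 113 ± 32.9 CPM, no overlap).

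Il27 was low in every group. It was at 2.27, 13.5, 7.62 and 17.6 CPM in blood monocytes, and at 4.41, 0.0894, 1.56 and 2.23 CPM in small-stage and 2.69, 1.43, 3.52, 1.49 and 3.45 CPM in large-stage monocytes of the brain. Of the 4 blood libraries, 3 exceeded all monocyte libraries of the brain. Il27 was called lower in monocytes of tumour-bearing brains (2.32 ± 1.34 against 10.2 ± 6.71 CPM, log2 fold change -2.43 ± 0.69, adjusted p = 0.0184), as 1 of 5 members in a comparison where 26.3% of 15714 genes were called. The call was lost without blood monocyte library 2 (-2.13, adjusted p = 0.0716) and without the doubtful libraries, which leaves 1 blood library, assumed to vary like those of the other groups (-2.93, adjusted p = 0.183). Il12b was at 0.758, 11.2, 0.663 and 0 CPM in blood monocytes, with a log2 fold change of -3.08 ± 1.16 that missed the threshold (adjusted p = 0.0615). Apobr, on the other strand, was at 58.2 ± 28.5 CPM in blood monocytes and 42.3 ± 23.3 and 51.2 ± 21.7 CPM in small- and large-stage monocytes.

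Other genes differed there as well, in a comparison that called 26.3% of all genes. Of 9 response genes the 3 tested were lower in brain monocytes, among them Gzmb, an NK cell granzyme (2.33 ± 5.31 against 161 ± 172 CPM), and Ifng (0.681 ± 1.73 against 6.77 ± 7.35 CPM), and T and NK cell markers (5 of 5 tested lower) summed to 147 to 3015 CPM in blood monocytes against 43.0 CPM or less in brain monocytes. B cell markers were also lower (5 of 5 tested). Of 4 receptors tested, Il27ra (2.35 ± 1.38 against 15.6 ± 5.72 CPM, no overlap), Il12rb2 (3.04 ± 2.16 against 19.8 ± 13.7 CPM) and Il12rb1 were lower, as was Stat4. The part of lymphocytes in these differences was not tested. Of 6 inhibitors 4 were higher in the brain, with Socs3 at 439 ± 227 against 60.7 ± 21.8 CPM (2.61 ± 0.44). Scaling by RLE factors moved the median of all genes here from -0.16 to -0.41 and changed the split from 1660 higher and 2467 lower to 1357 and 3464.

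Stage was compared within each population, and no member was called. Calls were rare for any gene: 0 of 19754 genes in microglia, 0 of 15874 in BMDM, 0 of 14567 in monocytes and 2 of 14230 (0.0141%) in granulocytes, with 2453, 955, 568 and 1252 genes at an unadjusted p under 0.05. DESeq2 called 20, 9, 8 and 616 genes, and no member. The median of the tested members was -0.94, 0.51, -0.13 and 0.27, against -0.09, 0.04, 0.00 and 0.20 for all genes. Il12b was lower at the large stage on average in microglia (-1.42 ± 0.87, 95% interval -3.13 to 0.29) and BMDM (-1.36 ± 1.03, -3.38 to 0.66), and the difference between these 2 effects was 0.14 ± 1.32 (adjusted p = 0.984). In monocytes all 4 small-stage libraries (0.648 to 8.04 CPM) exceeded all 5 large-stage libraries (0 to 0.168 CPM, 4 counts in all), with an unadjusted p of 0.00298 and an adjusted p of 1.00. Without the filter on low counts the adjusted p was 0.0274.

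Il12a had the opposite order in BMDM, with no count at the small stage and 4 of 5 large-stage libraries above 0, a mean at least 14.7-fold higher with 3 counts over the group as the floor. This was not called (adjusted p = 0.778), and the stage effect in BMDM less that in microglia had an adjusted p of 0.0540, which passed the threshold in 6 of 20 fits that left out 1 library and without the filter on low counts (0.0463). Ebi3 in granulocytes (-0.54 ± 0.44) was called lower at the large stage with RLE factors alone (-1.92 ± 0.61, adjusted p = 0.0392), a scaling under which 1653 genes passed in that comparison instead of 2.

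Radiotherapy was compared with the unirradiated small and large stages together, in 16 comparisons that share the unirradiated libraries of each population. No member was called in any of them, and few genes of any kind were: 0.0607% in microglia on day 3, 0.0354% on day 5 and 0.00506% on day 10 after 5 fractions, 0.101% (20 genes) in single-fraction microglia, 0.0063% in single-fraction BMDM, and 0% in the other 11. Between 357 and 1603 genes had an unadjusted p under 0.05. In microglia Il12b was at 15.6, 2.64, 0.876 and 0.563 CPM on day 3 and 9.52, 2.87, 0.239 and 1.32 CPM on day 5 after 5 fractions, at 2.75, 8.44 and 12.9 CPM on day 10, and at 4.22, 14.7 and 15.3 CPM on day 3 after the single fraction. All 14 irradiated libraries lay below the highest large-stage library, and they overlapped with the unirradiated range of 3.53 to 39.6 CPM. The log2 fold changes were -1.66 ± 0.89, -2.20 ± 0.92, -0.99 ± 0.95 and -0.53 ± 0.92 in that order, of which day 5 had an unadjusted p of 0.0231 and an adjusted p of 1.00. Against the small stage alone they were -2.37, -2.90, -1.70 and -1.24, and against the large stage alone -0.95, -1.49, -0.29 and 0.18, so that the single fraction changed sign with the reference (mean 11.4 CPM, against 25.8 CPM in small-stage and 9.91 CPM in large-stage microglia). No member was called against either stage alone in any population.

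In BMDM Il12b was at 198, 32.2, 17.4 and 0.899 CPM on day 3 and 16.9, 6.46, 1.58 and 15.2 CPM on day 5 after 5 fractions, at 27.6, 8.61 and 16.2 CPM on day 10, and at 9.64, 0.656 and 25.6 CPM after the single fraction. The log2 fold changes were 0.20 ± 0.94, -2.41 ± 1.10 (unadjusted p = 0.0388, adjusted p = 0.680), -1.62 ± 1.182 and -2.19 ± 1.23. On day 3 the sign depended on the reference, at -0.48 against the small and 0.88 against the large stage alone. None of the 4 interactions that compared these effects with those in microglia was called for any member, and the share of genes called was 0.00516% for day 3 after 5 fractions and 0% for the others. The summed conventional dendritic cell markers were 450 to 1886 CPM in BMDM on day 3, 425 to 765 CPM on day 5, 648 to 1149 CPM on day 10 and 783 to 936 CPM after the single fraction.

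In irradiated granulocytes Il23a was at 66.7, 120, 41.3 and 13.2 CPM on day 3, 0, 20.4, 41.1 and 9.97 CPM on day 5 and 33.2, 223 and 51.2 CPM on day 10 after 5 fractions, and at 12.8, 12.2 and 19.95 CPM after the single fraction. Il27 reached its highest granulocyte mean on day 5, with 10.4, 7.49, 7.79 and 14.3 CPM, all above the 9 unirradiated libraries (at most 5.67 CPM). Its log2 fold change was 1.94 ± 0.58 (unadjusted p = 0.00246, edgeR adjusted p = 0.421), and DESeq2 gave an adjusted p of 0.0167. Apobr was at 317 ± 103 CPM in that group and at 186 ± 148 and 270 ± 80.8 CPM in the small- and large-stage granulocytes. Il12a in single-fraction monocytes, at 0, 0 and 0.402 CPM, was the other member that DESeq2 called (-4.97, adjusted p = 0.0421, against 0.513 with edgeR). Ebi3 lay between 58.0 and 188 CPM in irradiated granulocytes, above all libraries of the other populations.

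Il12b of libraries with the same group and number moved together across populations. In the 5x2 day 3 groups, library 1 was highest in microglia (15.6 CPM), BMDM (198 CPM) and monocytes (9.32 CPM). Over 24 same-numbered pairs of microglia and BMDM of tumour-bearing brains, Pearson r was 0.59 (permutation p = 0.00259, adjusted over 37 relations 0.0120), rho was 0.60 (permutation p = 0.00218), r without the 2 farthest pairs was 0.43, and r within conditions was 0.58. Over 23 pairs of BMDM and monocytes r was 0.63 (permutation p = 0.00135, adjusted 0.0120) and rho was 0.53 (permutation p = 0.0107), but r was 0.32 without the 2 farthest pairs and 0.53 within conditions. For the other 4 members no such r passed the adjusted threshold, the highest being 0.45 for Ebi3 between BMDM and monocytes (permutation p = 0.0329, adjusted 0.0935, rho = 0.36, permutation p = 0.0891). The labels do not say that equal numbers mark one animal.

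**Figure D5:**
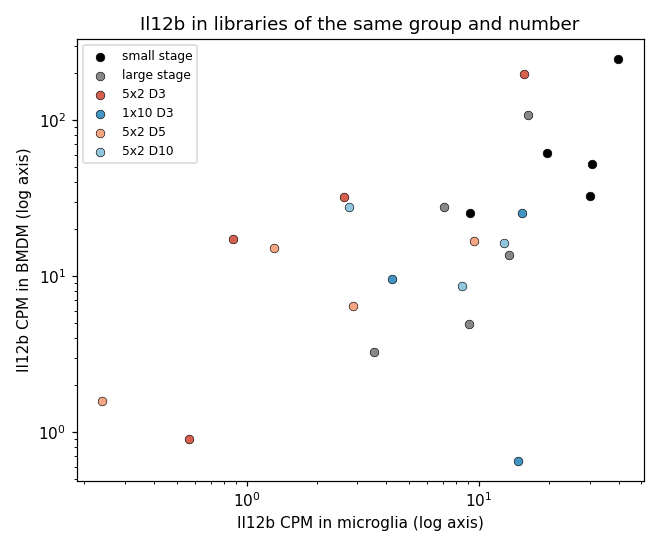
Il12b CPM in BMDM against that in microglia for libraries that share group and number, on log axes, with 1 point per pair and colours for the condition. The pairs rise together (r = 0.59 over 24 pairs). In 1 single-fraction pair (0.656 CPM in BMDM, 14.7 CPM in microglia) BMDM lay far below other pairs of similar microglia level.

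The genes whose pattern over the 28 group means was most like that of each member were found by Pearson r of log2(CPM + 1). They were sought among 17848 genes, from which gene models without a proper name had been left out. For Il12b they included Snx22 (r = 0.89), Zbtb46 (0.88), Ucp1 (0.85) and H2-Oa (0.84), of which Zbtb46, a transcription factor of conventional dendritic cells, and Snx22 were highest in small-stage BMDM at 70.1 and 68.0 CPM. For Il12a they were Mctp2 (0.89), Ambp (0.88), Lcn2 (0.88), Nos2 (0.87) and Inhba (0.87), each highest in a granulocyte group. Lcn2, an iron-binding protein of neutrophils, reached 1897 CPM and Nos2, the inducible nitric oxide synthase, 105 CPM.

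For Il23a the list was Mir27a (0.97), Mir23a (0.96), Rpl10-ps2 (0.96), Eif1 (0.95) and Clec12b (0.95), and for Ebi3 it was Chst15 (0.96), Tmem140 (0.96), Optn (0.95), Vsig10 (0.94) and Camkk1 (0.94), again each highest in granulocytes. Mir27a and Mir23a are neighbouring precursor genes with group means of at most 3.75 and 4.14 CPM, and Rpl10-ps2 is a pseudogene whose reads may belong to related copies. For Il27 the values were lower: Cdh19 (0.83), Fntb (0.81), Glrb (0.80), Gp1ba (0.79) and Npas2 (0.78). These correlations are over groups that share populations and give no p.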

How the data were processed

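Whole-number read counts per gene were deposited by the authors as 1 table of 49585 genes and all libraries. Per the submitters' processing notes the tools were FastQC, TopHat2 2.0.14, HTSeq and DESeq2 1.18.1 with build GRCm38; neither their settings nor the strand used in counting is stated. Per the labels' protocols, cells were sorted by flow cytometry and total RNA was sequenced. Groups came from the labels.

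Genes passing filterByExpr (minimum count 10, minimum total 15) were scaled by TMM and tested with edgeR 4.0.16 (quasi-likelihood F test, Benjamini-Hochberg adjustment over all genes tested, threshold 0.05) in R 4.3.3. Small and large stages were averaged on the log scale between populations, and radiotherapy groups were compared with both stages together. Doubtful libraries had under 3000000 counts or over 30000 genes detected. Genes most like a member were the 5 with the highest r, among genes with a group mean of at least 1 CPM. Before this ranking, gene models without a proper name (such as Gm and Rik symbols), mitochondrial genes and immunoglobulin and T cell receptor segments were left out by symbol. Alternatives were RLE factors, no filter, a replicate block, DESeq2 1.42.0, the compared groups alone, either stage alone, and leaving out libraries. No 2 libraries of a group matched within sampling noise (162 pairs). The tests were checked on simulated data. The members and lists were chosen with earlier results of these data known, and pathway genes were named from those lists. Some genes that these rules name are not reported here.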

Additional observations from a re-analysis of the deposited data

Results flagged for a closer look

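In 21 of 88 groups of 4 or 5 libraries, 1 library stood apart, the gap to its nearest neighbour over the group's range being above Dixon's 95% critical value, which chance gives in about 1 of 20 groups of normally distributed values. That rate does not apply to counts near 0: for Il12a in microglia and BMDM, and for Il12b and Il23a in monocytes, on day 5 after 5 fractions, the other libraries were all at 0. For Il12b these were blood monocyte library 2 (11.2 CPM), small-stage BMDM library 2 (247 CPM) and granulocyte library 3 (8.54 CPM), and large-stage BMDM library 1 (108.1 CPM) and granulocyte library 2 (1.14 CPM). After 5 fractions they were library 1 of microglia (15.6 CPM), BMDM (198 CPM) and monocytes (9.32 CPM) and library 3 of granulocytes (1.181 CPM) on day 3, and monocyte library 1 on day 5 (2.94 CPM).

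For Il23a they were small-stage monocyte library 2 (12.96 CPM), large-stage BMDM library 1 (6.27 CPM) and monocyte library 1 (17.7 CPM), and on day 5 microglia library 2 (1.505 CPM) and monocyte library 2 (0.527 CPM). For Il12a they were tumour-free microglia library 3 (19.9 CPM, the others at most 0.344 CPM), large-stage microglia library 3 (0.299 CPM), and on day 5 microglia library 2 (0.137 CPM) and BMDM library 2 (0.538 CPM). For Il27, tumour-free microglia library 3 was lowest at 0 CPM, against 4.97 CPM or more in the others. For Ebi3, small-stage granulocyte library 1 was highest at 137 CPM, against 60.0 to 63.5 CPM. That library had the fewest genes detected of all (7531). Tumour-free microglia library 3 has the lowest total of all, so that its CPM rest on few counts.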

How the results depend on the processing

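Without the filter on low counts, members called went from 1 to 2 for large-stage against tumour-free microglia, from 1 to 3 for monocytes against blood monocytes, and from 0 to 1 for monocytes by stage and for the stage interaction. RLE factors gave 2 for monocytes against blood monocytes and 1 for granulocytes by stage. DESeq2 gave 2 for monocytes against blood monocytes, and 1 each for single-fraction monocytes and day 5 granulocytes; it gave no adjusted p for Ebi3 between granulocytes and monocytes, so that count has no value. Without the doubtful libraries 0 were called for BMDM against microglia and for monocytes against blood monocytes. Leaving out 1 library gave 0 to 1 for BMDM against microglia, 0 to 2 for monocytes against blood monocytes and 0 to 1 for the stage interaction. Of the 25 most alike genes, 11 were shared when r was taken over single libraries and 15 with a pseudocount of 0.1 CPM. The cause of these changes was not tested.

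With the replicate block 0 members were called for BMDM against microglia (Il12b 1.03, adjusted p = 0.0523) and for monocytes against blood monocytes (Il27 -2.77, adjusted p = 0.0633); the other 7 called values kept their call. Equal numbers do not show pairing throughout: correlations of deviations exceeded 0.1 in 18 of 24 pairs of microglia and BMDM (lowest -0.36, 18 best with their own number), 21 of 23 of BMDM and monocytes (lowest -0.057, 21 best) and 18 of 23 of granulocytes and monocytes (lowest -0.049, 17 best). Over all genes, calls for small-stage against tumour-free microglia were 3035, and 1979 with the block, 1359 without doubtful libraries and 466 with those groups alone; for the large stage they were 6309, 3878, 2955 and 1095. For monocytes against blood monocytes 4127 became 211 without doubtful libraries, where 1 blood library is left, and 24097 without the filter. Of the 80 values of members in the radiotherapy comparisons, none of them called, 15 changed sign against the large stage alone and 12 against the small stage alone, and 8 could not be compared.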
